A study of Homo sapiens with 4 samples.

Results

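Collagen chain genes were described in HK-2, an established human cell line derived from the proximal tubule of the kidney and immortalised with papillomavirus genes, after exposure to transforming growth factor β1 (TGF-β1). A gene was taken as a member when its symbol in the deposited expression table read COL, a number, A and a number. Of 25609 genes in the table, 40 met this rule. Gene names of this form number 44, so the family was not covered in full. The 4 libraries comprised 2 from cells that received TGF-β1 (20 ng/mL, 24 h) and 2 from control cells, all labelled wild type and all of 1 cell line. Per the labels, serum was withdrawn for 24 h beforehand and the uridine analogue 4-thiouridine (4SU) was added at a final 100 μM for 20 h. The labels attach this text, TGF-β1 included, to each sample, and it was read as meaning that controls differed in TGF-β1 alone. The labels number the libraries of a group 1 and 2 without naming separate cultures, so the p-values rest only on how far same-group libraries differ, and that spread may be technical.

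Collagens are secreted proteins in which chains of a repeating glycine-led sequence wind around each other into a triple helix, and the chains of a helix can come from 1 gene or from several. Fibrillar collagens form the cables of scar and connective tissue, type IV forms the sheet of basement membranes, type VI forms beaded microfibrils, and the FACIT collagens (fibril-associated, with interrupted helices) sit on fibril surfaces. In the kidney, tubule cells rest on a type IV collagen network, and interstitial fibrosis is marked by deposition of fibrillar collagen. TGF-β1 is the best known inducer of collagen genes, acting through SMAD transcription factors.

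The levels were RPKM, reads scaled to exon length and to library size, which allow genes of different length to be compared. A difference was called when limma's test on log2(RPKM + 0.5) gave an adjusted p below 0.05, with Benjamini-Hochberg adjustment over all 16590 genes whose RPKM averaged 0.5 or more. Of the 40 chains, 19 passed that filter. The other 21 had mean levels of at most 0.129 RPKM, whereas the lowest chain that passed averaged 1.37 RPKM. Each of the 19 also exceeded 0.5 RPKM in both groups taken alone (lowest group mean 0.615 RPKM in controls, for COL20A1), so none passed through the TGF-β1 libraries only.

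With TGF-β1, 12 of the 19 chains rose, 1 fell and 6 did not pass the test. Among all genes tested, 9.12% were called, 6.12% higher and 3.0% lower. Scaled by total recovered reads, 657 of all genes rose and 871 fell, while 11 chains rose and 1 fell; without the variance trend in limma, 6 chains rose and 1 fell. The median log2 fold change was 0.76 over the 19 chains and 0.03 over all genes tested. The largest folds were in fibrillar and FACIT chains (COL27A1, COL22A1, COL5A1, COL20A1 and COL1A1, 4.41-fold to 6.16-fold), whose control means were at most 5.19 RPKM. The largest gain in level was in the type IV chains. The only chain that fell was COL8A1. Groups did not overlap in 16 of the 19 chains, 15 with TGF-β1 above control and 1 below, whereas 29.5% and 24.6% of all genes tested were so arranged.

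**Figure D1:**
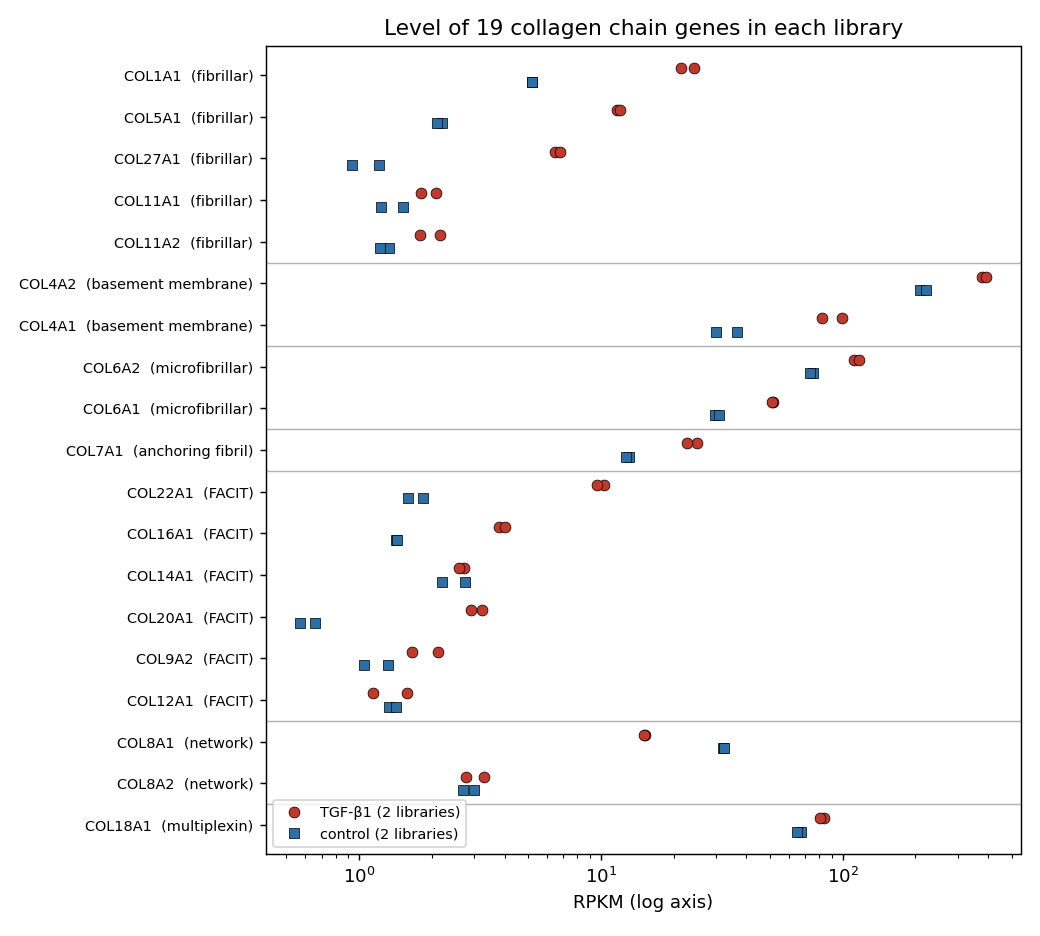
RPKM on a log axis of the 19 collagen chain genes that passed the filter, grouped by class. Red circles are the 2 TGF-β1 libraries and blue squares the 2 control libraries. COL4A2 is the highest chain in each of the 4 libraries, and COL8A1 is the 1 chain whose TGF-β1 libraries both lie below both controls.

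Reads per gene, recovered from the steps in the deposited RPKM, summed to 4591091 and 5393833 for TGF-β1 libraries 1 and 2, and 3308256 and 4760233 for control libraries 1 and 2. Defining markers of other cell types that make collagen were mostly at or near 0. Of 10 markers of fibroblasts and pericytes, 9 were in the table, and 8 of these (PDGFRB, DCN, THY1, ACTA2, POSTN, TCF21, MFAP5 and FAP) had at most 7 reads in any library, with FAP at 0 in all. LUM, a proteoglycan of collagen fibrils, was the exception, with 8.76 and 6.74 RPKM in TGF-β1 libraries against 12.1 and 12.9 RPKM in controls (adjusted p = 0.0567). The summed level of the list was 9.28 and 7.26 RPKM with TGF-β1 and 12.9 and 13.8 RPKM in controls. Both endothelial markers in the table, VWF and CDH5, had 0 reads in all 4 libraries. Of 2 leukocyte markers in the table, CD14 had 5 to 13 reads and CD68 1 to 4. CD14 passed the filter, with 1.72 and 0.732 RPKM with TGF-β1 against 0.860 and 1.41 RPKM in controls. Of 11 proximal tubule markers in the table, 4 passed the filter, and PAX8 and DPP4 fell. The transporters and uptake receptors that mark the mature proximal tubule (SLC34A1, AQP1, CUBN, SLC5A2) had at most 11 reads in any library. All 7 epithelial markers passed the filter, of which 3 rose (KRT7, KRT8 and KRT18) and 2 fell (KRT19 and EPCAM). KRT8 measured 167 and 183 RPKM with TGF-β1 against 71.9 and 80.6 RPKM in controls, and KRT19 measured 25.0 and 25.9 RPKM with TGF-β1 against 73.2 and 74.2 RPKM in controls. The part of these marker differences in the collagen results was not tested. In bulk RNA, a change in the number of cells that express a gene cannot be told apart from a change in RNA per cell.

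Promoter windows were examined for the chains the results turn on, because partner chains that share a start region or a helix were found at unequal levels. RefSeq windows (GRCh38.p14, 250 bases before to 50 after a gene's start) were given for 29 of the 40 chains. COL4A1 and COL4A2 are transcribed in opposite directions from starts 127 bases apart on chromosome 13, and their windows share 226 bases, so the window of COL4A2 largely shows both. COL27A1 and COL5A1 are shown as fibrillar chains with the largest folds, and COL6A2 and COL6A3 as partners of 1 helix at opposite ends of expression. Capitals mark CAGAC (the core to which SMAD proteins bind), GGGCGG (the GC box), TATAAA and CCAAT on either strand, and each sequence reads 5′ to 3′ on the strand of its gene.
COL4A2, chr13:110307034-110307333, plus strand: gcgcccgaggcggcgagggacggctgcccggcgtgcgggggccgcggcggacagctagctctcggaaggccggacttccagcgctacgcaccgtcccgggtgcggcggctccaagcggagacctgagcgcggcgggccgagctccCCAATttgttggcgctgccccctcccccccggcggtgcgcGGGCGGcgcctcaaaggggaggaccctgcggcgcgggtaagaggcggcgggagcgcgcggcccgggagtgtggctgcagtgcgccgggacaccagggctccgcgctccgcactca
COL27A1, chr9:114155287-114155586, plus strand: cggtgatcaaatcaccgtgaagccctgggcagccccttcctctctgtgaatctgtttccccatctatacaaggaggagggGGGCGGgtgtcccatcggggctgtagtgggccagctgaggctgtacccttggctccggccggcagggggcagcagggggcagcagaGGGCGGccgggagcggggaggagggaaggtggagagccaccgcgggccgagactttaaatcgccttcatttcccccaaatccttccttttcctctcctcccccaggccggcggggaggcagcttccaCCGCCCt
COL5A1, chr9:134641553-134641852, plus strand: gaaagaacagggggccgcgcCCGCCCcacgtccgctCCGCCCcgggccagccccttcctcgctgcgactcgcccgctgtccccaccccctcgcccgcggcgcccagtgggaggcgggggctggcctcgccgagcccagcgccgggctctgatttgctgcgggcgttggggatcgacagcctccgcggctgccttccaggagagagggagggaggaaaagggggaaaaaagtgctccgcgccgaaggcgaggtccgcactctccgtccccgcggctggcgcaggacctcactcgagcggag
COL6A2, chr21:46097862-46098161, plus strand: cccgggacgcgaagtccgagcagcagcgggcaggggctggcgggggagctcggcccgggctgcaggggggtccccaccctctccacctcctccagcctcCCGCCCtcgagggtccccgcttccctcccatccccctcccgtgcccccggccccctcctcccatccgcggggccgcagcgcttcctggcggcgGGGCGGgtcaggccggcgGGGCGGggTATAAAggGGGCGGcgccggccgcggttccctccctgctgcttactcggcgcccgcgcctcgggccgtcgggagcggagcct
COL6A3, chr2:237414115-237414414, minus strand: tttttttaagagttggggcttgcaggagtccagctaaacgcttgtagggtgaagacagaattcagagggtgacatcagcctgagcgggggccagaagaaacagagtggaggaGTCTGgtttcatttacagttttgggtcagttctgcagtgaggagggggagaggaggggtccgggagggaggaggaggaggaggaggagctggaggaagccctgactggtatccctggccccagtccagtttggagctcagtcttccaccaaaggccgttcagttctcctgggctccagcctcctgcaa

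The fibrillar class held 11 members, of which 5 passed the filter and 3 rose. COL1A1 (ENSG00000108821.13, hg38 chromosome 17, 50183289 to 50201632, minus strand), the major chain of scar collagen, measured 21.4 and 24.3 RPKM in TGF-β1 libraries 1 and 2, against 5.21 and 5.17 RPKM in control libraries 1 and 2. Both TGF-β1 libraries lay far above the controls, which differed little from each other. The group means were 22.9 ± 2.03 RPKM and 5.19 ± 0.0305 RPKM (SD, n = 2 per group), a 4.41-fold difference (log2 fold change 2.04, SE 0.10, adjusted p = 0.00197). COL5A1 (ENSG00000130635.15, chromosome 9, 134641774 to 134844843, plus strand), which sets where and how thick fibrils form, measured 11.6 and 12.0 RPKM with TGF-β1 and 2.20 and 2.10 RPKM in controls. The gap between its groups was many times the spread within them (5.51-fold, log2 2.22, 95% confidence interval 1.91 to 2.53, adjusted p = 0.00223). COL27A1 (ENSG00000196739.14, chromosome 9, 114155560 to 114312511, plus strand), a fibrillar collagen best known from cartilage, measured 6.46 and 6.76 RPKM with TGF-β1 and 1.21 and 0.935 RPKM in controls. Its fold, 6.16, was the largest of the 19 chains as a ratio of group means (log2 2.18, 95% confidence interval 1.73 to 2.64, adjusted p = 0.00469). The 3 calls held under all 14 alternative settings.

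COL11A1 and COL11A2, minor fibrillar chains that join type II fibrils in cartilage, did not pass the test. COL11A1 measured 1.79 and 2.08 RPKM with TGF-β1 and 1.23 and 1.51 RPKM in controls (log2 0.38, 95% confidence interval -0.17 to 0.94, adjusted p = 0.357). COL11A2 measured 2.16 and 1.78 RPKM with TGF-β1 and 1.33 and 1.22 RPKM in controls (log2 0.47, 95% confidence interval -0.07 to 1.02, adjusted p = 0.259). In both, the TGF-β1 libraries lay above the controls without overlap, on 56 to 83 reads with TGF-β1 and 30 to 60 reads in controls. The intervals include no change and rises of up to 0.94 and 1.02 on the log2 scale.

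The other 6 fibrillar genes were nearly or fully silent. COL1A2, the usual partner of COL1A1 in the type I helix, had 0 reads in all 4 libraries. A count of 0 allows up to 3 reads, which corresponds to 0.0647 and 0.0571 RPKM in TGF-β1 libraries 1 and 2, and to 0.0793 and 0.0572 RPKM in control libraries 1 and 2. Measured against that floor, COL1A1 was at least 331-fold and 425-fold higher than COL1A2 in TGF-β1 libraries 1 and 2, and at least 65.7-fold and 90.3-fold higher in control libraries 1 and 2. COL5A2, the partner of COL5A1, had 5 and 5 reads with TGF-β1 and 1 and 3 reads in controls. The rate ratio of these reads was 2.28, with a 95% counting interval of 0.658 to 9.97 (exact binomial, counting error only). COL3A1, the other main chain of interstitial scar, had 1 and 1 reads with TGF-β1 and 1 and 0 reads in controls. COL2A1, COL5A3 and COL24A1 had at most 1 read in any library. The fibrillar RNA of these cells was therefore almost all from COL1A1, COL5A1, COL27A1, COL11A1 and COL11A2. In controls COL27A1 averaged 1.07 RPKM, below COL11A1 (1.37 RPKM) and COL11A2 (1.27 RPKM). The summed level of the class was 43.9 and 47.3 RPKM with TGF-β1 and 11.4 and 11.1 RPKM in controls (4.05-fold).

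**Figure D2:**
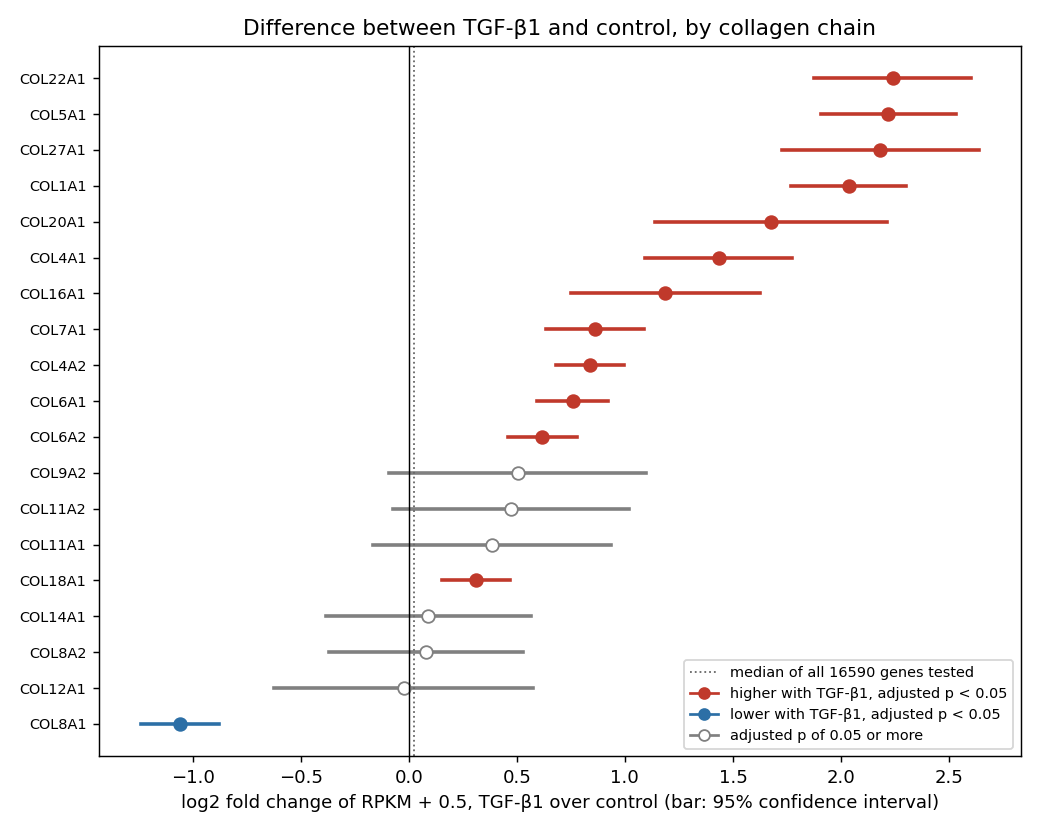
Log2 fold change (TGF-β1 over control, on log2(RPKM + 0.5)) of each of the 19 chains with its 95% confidence interval, ordered by size. Filled points passed the test. The 4 chains at the top, COL22A1, COL5A1, COL27A1 and COL1A1, have estimates between 2.04 and 2.24 and their intervals overlap, and COL8A1 at the bottom has an estimate of -1.06.

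Type IV collagen was the most abundant collagen in these cells. COL4A2 (ENSG00000134871.17, chromosome 13, 110305812 to 110513209, plus strand) measured 377 and 393 RPKM with TGF-β1 and 210 and 220 RPKM in controls. It ranked 122 of all 25609 genes by mean RPKM over the 4 libraries. Both TGF-β1 libraries lay above both controls (1.79-fold, log2 0.84, 95% confidence interval 0.68 to 0.99, adjusted p = 0.00362). COL4A1 (ENSG00000187498.14, chromosome 13, 110148963 to 110307233, minus strand), which joins COL4A2 in the common basement membrane helix, measured 82.0 and 99.2 RPKM with TGF-β1 and 30.1 and 36.4 RPKM in controls. Its groups were also apart (2.73-fold, log2 1.43, 95% confidence interval 1.09 to 1.78, adjusted p = 0.00691). Library 2 was higher than library 1 in both groups for this gene. Both calls were lost without the variance trend in limma (adjusted p = 0.0524 for COL4A1 and 0.0586 for COL4A2).

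The pair was unequal at the RNA level although it shares a start region. Per length, COL4A2 exceeded COL4A1 4.60-fold and 3.96-fold in TGF-β1 libraries 1 and 2, and 6.98-fold and 6.05-fold in control libraries 1 and 2. The log2 ratio of COL4A1 to COL4A2 was -2.20 and -1.98 with TGF-β1 and -2.80 and -2.60 in controls, a difference of 0.61. Both TGF-β1 ratios lay above both control ratios. The difference between the groups in this ratio was not tested. In GENCODE the spans of the genes overlap by 1421 bases on opposite strands. COL4A1 shares no exon bases with another gene there, COL4A2 included, and COL4A2 shares 0.492% of its own with genes other than COL4A1. The sources used here do not say whether counting used strand, so reads of those shared bases cannot be assigned to COL4A2 or to the other genes.

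The other type IV chains were nearly absent. COL4A3 and COL4A6 had 0 reads in all 4 libraries, COL4A4 had 1 read in TGF-β1 library 2 only, and COL4A5 had 2 and 2 reads with TGF-β1 and 1 and 4 reads in controls. COL4A3, COL4A4 and COL4A5 form the network of the glomerular basement membrane and are the genes of Alport syndrome. COL4A3 pairs head to head with COL4A4 and COL4A5 with COL4A6, as COL4A1 does with COL4A2, and these starts lie 419 and 380 bases apart in RefSeq. For COL4A5 the rate ratio was 0.730 with a 95% counting interval of 0.145 to 3.39, which includes changes in either direction.

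Microfibrillar type VI collagen came next in abundance. COL6A2 (ENSG00000142173.14, chromosome 21, 46098097 to 46132849, plus strand) measured 111 and 117 RPKM with TGF-β1 and 75.5 and 73.0 RPKM in controls. The groups were separate (1.54-fold, log2 0.62, adjusted p = 0.00838). COL6A1 (ENSG00000142156.14, chromosome 21, 45981737 to 46005050, plus strand), whose start lies 116 kb from that of COL6A2, measured 51.8 and 51.0 RPKM with TGF-β1 and 29.6 and 30.7 RPKM in controls. It rose by a similar amount (1.70-fold, log2 0.76, adjusted p = 0.00516), and the ratio of COL6A2 to COL6A1 was 2.15 and 2.30 with TGF-β1 and 2.55 and 2.38 in controls. Both calls were lost without the variance trend (adjusted p = 0.0837 for COL6A2 and 0.0642 for COL6A1).

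COL6A3 (ENSG00000163359.15, chromosome 2, 237324003 to 237414375, minus strand), the large chain that completes the type VI helix, was almost silent. It had 7 and 7 reads with TGF-β1, against 1 and 0 reads in controls. The rate ratio was 12.8 with a 95% counting interval of 1.94 to 540, which covers counting error only and rests on 1 control read. In RPKM as deposited, COL6A1 exceeded COL6A3 563-fold and 628-fold in TGF-β1 libraries 1 and 2. Of COL6A3, 0.505% of its 50-base words also occur in another annotated gene.

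**Figure D3:**
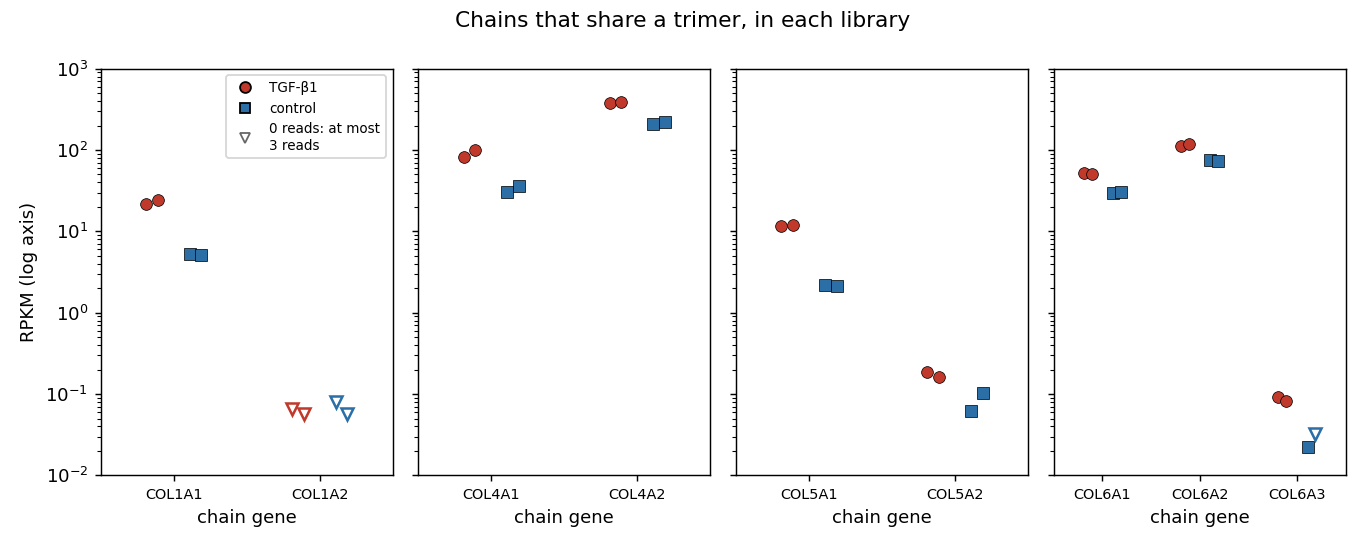
RPKM on a log axis of chains that share a helix, in each library. Red circles are TGF-β1 libraries, blue squares controls, and open triangles stand for 0 reads, drawn at the level of 3 reads. In types I, V and VI a chain above 1 RPKM has a partner below 0.2 RPKM (COL1A2, COL5A2 and COL6A3), and in type IV both chains are expressed.

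Among the 9 FACIT genes, 6 passed the filter, 3 rose and 0 fell. COL22A1 (ENSG00000169436.16, chromosome 8, 138588235 to 138914006, minus strand), a collagen of tissue junctions such as that of muscle and tendon, measured 10.3 and 9.64 RPKM with TGF-β1 and 1.60 and 1.83 RPKM in controls. The groups were far apart (5.80-fold, log2 2.24, 95% confidence interval 1.88 to 2.60, adjusted p = 0.00301), and the call held under all 14 alternatives. COL16A1, which is found on fibrils and microfibrils, measured 3.78 and 4.00 RPKM with TGF-β1 and 1.42 and 1.43 RPKM in controls (2.73-fold, log2 1.19, adjusted p = 0.0203). COL20A1 (ENSG00000101203.16, chromosome 20, 63293186 to 63334851, plus strand) measured 3.21 and 2.91 RPKM with TGF-β1 and 0.658 and 0.572 RPKM in controls. Its control level rested on 24 and 29 reads (4.98-fold, log2 1.68, adjusted p = 0.0144). The call of COL16A1 was lost without TGF-β1 library 1 (adjusted p = 0.0900), TGF-β1 library 2 (0.116) or control library 1 (0.0509) and without the filter (0.0510), and that of COL20A1 without TGF-β1 library 1 (0.0759) or TGF-β1 library 2 (0.0692).

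The other 3 expressed FACIT genes did not pass. COL9A2, a cartilage fibril chain, measured 2.12 and 1.66 RPKM with TGF-β1 and 1.31 and 1.05 RPKM in controls (log2 0.50, 95% confidence interval -0.09 to 1.10, adjusted p = 0.266). COL14A1 measured 2.71 and 2.59 RPKM with TGF-β1 and 2.20 and 2.74 RPKM in controls (log2 0.09, 95% confidence interval -0.38 to 0.57). COL12A1 measured 1.15 and 1.57 RPKM with TGF-β1 and 1.34 and 1.42 RPKM in controls (log2 -0.02, 95% confidence interval -0.62 to 0.58). COL12A1 and COL14A1, which decorate interstitial fibrils, overlapped between groups, and their adjusted p values were 0.960 and 0.821. COL9A3 had 2 and 3 reads with TGF-β1 and 0 reads in both controls. Setting the controls together to 3 reads gave a ratio of 1.52. That ratio takes the TGF-β1 reads as exact, so it is not a lower limit on the fold. COL9A1 had 0 reads with TGF-β1 and 1 read in each control, and COL21A1 had 0 reads in all 4 libraries.

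Of the 3 network genes, 2 passed the filter, and 1 of these, COL8A1, fell. COL8A1 (ENSG00000144810.15, chromosome 3, 99638475 to 99799226, plus strand), a short-chain collagen of vessel walls and the corneal endothelium, measured 15.3 and 15.1 RPKM with TGF-β1 and 32.0 and 32.4 RPKM in controls. Replicates were within 0.5 RPKM of each other in both groups, and the level with TGF-β1 was 0.472 times that in controls (log2 -1.06, 95% confidence interval -1.24 to -0.88, adjusted p = 0.00317). The call held under all 14 alternatives, with estimates of -1.23 to -1.03. With TGF-β1 it stood below COL7A1 and COL1A1 in both libraries, and in controls it stood above both, at about the level of COL4A1 and COL6A1. COL8A2, which can join it in 1 helix, measured 2.76 and 3.30 RPKM with TGF-β1 and 2.68 and 2.98 RPKM in controls. Its groups overlapped (log2 0.08, 95% confidence interval -0.37 to 0.53, adjusted p = 0.837). COL10A1, the collagen of hypertrophic cartilage, had 0 reads in all 4 libraries.

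COL7A1 (ENSG00000114270.17, chromosome 3, 48564073 to 48595267, minus strand), which forms the anchoring fibrils that tie epithelium to the tissue below, measured 25.1 and 22.7 RPKM with TGF-β1 and 13.1 and 12.7 RPKM in controls. The groups were separate (1.85-fold, log2 0.86, adjusted p = 0.00880), and the call was lost without the variance trend (adjusted p = 0.0619). COL18A1 (ENSG00000182871.14, chromosome 21, 45405137 to 45513720, plus strand), a multiplexin (a collagen with a much interrupted helix) of basement membranes that releases endostatin, measured 84.0 and 80.3 RPKM with TGF-β1 and 67.3 and 64.9 RPKM in controls. Its 1.24-fold difference was the smallest that passed (log2 0.31, adjusted p = 0.0447). That call was lost without TGF-β1 library 1 (adjusted p = 0.182), TGF-β1 library 2 (0.129), control library 1 (0.0827) or control library 2 (0.113), and with scaling by total recovered reads (log2 0.13, adjusted p = 0.303) or quantile normalisation (log2 0.075, adjusted p = 0.5996). It was also lost with median-of-ratios scaling (adjusted p = 0.0740), without the filter (0.0678) and without the variance trend (0.231), and held in 5 of 14 alternatives. Of the exon bases of COL18A1, 16.4% are shared with other annotated genes on either strand. The other multiplexin, COL15A1, had 0 reads in all 4 libraries. Of the 3 transmembrane collagens in the table, none passed the filter. COL17A1, a hemidesmosome protein of skin epithelium, had 5 and 2 reads with TGF-β1 and 2 and 1 reads in controls (rate ratio 2.13, 95% counting interval 0.486 to 12.8), and COL13A1 and COL25A1 had 0 reads in all libraries. COL26A1 and COL28A1, which fit no class, had at most 1 read in any library.

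Added up over all 40 chains, collagen RNA reached 817 and 852 RPKM in TGF-β1 libraries 1 and 2, against 480 and 494 RPKM in control libraries 1 and 2. The group means were 834 ± 25.0 RPKM and 487 ± 9.63 RPKM (SD, n = 2 per group), a 1.71-fold difference. As a share of the summed RPKM of all genes this was 0.222% and 0.221% with TGF-β1 and 0.146% and 0.145% in controls. Basement membrane chains supplied 56.2% and 57.8% of collagen RPKM with TGF-β1 and 49.9% and 52.0% in controls. Fibrillar chains supplied 5.37% and 5.55% with TGF-β1 and 2.37% and 2.25% in controls. Network chains supplied 2.21% and 2.17% with TGF-β1 and 7.22% and 7.17% in controls. COL4A2 alone accounted for 48.9% of the difference between the group means, COL4A1 for 16.5%, COL6A2 for 11.5% and COL1A1 for 5.09%. Of the other chains with the largest folds, COL5A1, COL22A1, COL27A1 and COL20A1 accounted for 2.79%, 2.37%, 1.60% and 0.705%. Leaving COL4A2 out gave a 1.65-fold difference for the other 39 chains.

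**Figure D4:**
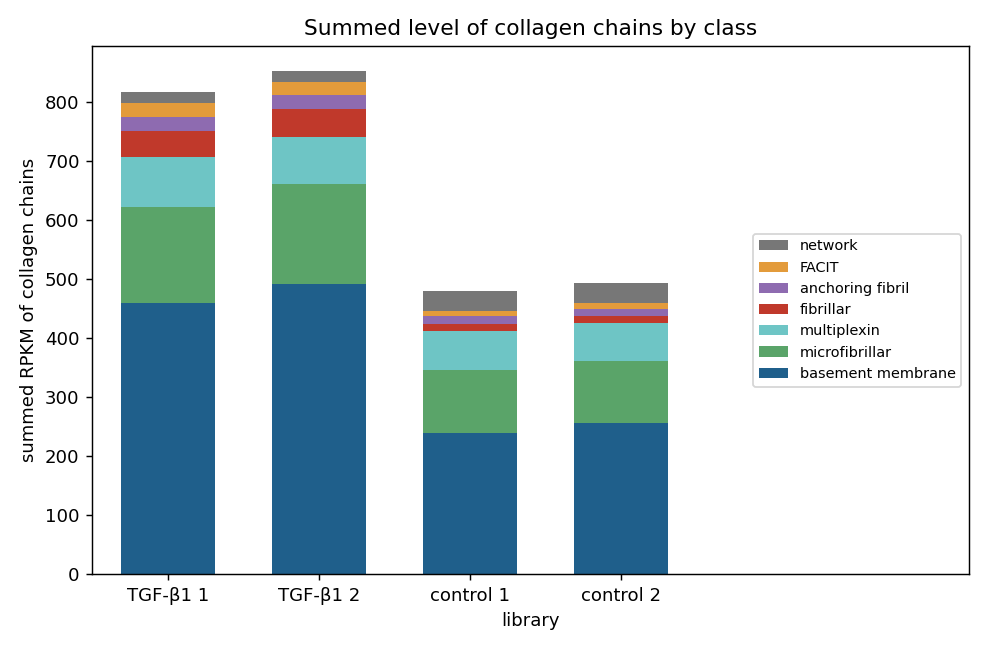
Summed RPKM of collagen chains in each library (bars start at 0), stacked by class, with transmembrane and other chains left out because none of them passed the filter. The TGF-β1 bars reach 817 and 852 RPKM and the control bars 480 and 494 RPKM, and basement membrane chains are the largest part of each.

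The promoter windows of expressed and silent chains differed in base composition, given here as a description. Of 13 expressed chains with a window, 12 held GGGCGG on either strand, against 4 of 16 chains below the filter and 45.0% of all 35116 windows of the same length. Values given for all windows cover expressed and silent genes alike, and those of expressed genes alone were not computed. The 8 chains that rose and had a window all held GGGCGG, with COL4A1 and COL4A2 both counted although their windows share 226 bases. COL8A2, COL11A1, COL9A2 and COL12A1, which did not pass the test, also held it, and COL11A2 did not. The median GC content was 73.7% in the 13 and 61.2% in the 16, and 58.7% in all windows. CAGAC was found in 5 of the 13 expressed chains, 2 of them among the 8 that rose, in 8 of the 16 below the filter and in 45.3% of all windows. CCAAT was in 3 of the 13, 7 of the 16 and 34.6% of all windows, and TATAAA in 2 of the 13, 2 of the 16 and 11.5% of all windows. AGACAGAC and TGANTCA (the AP-1 site), held by 1.31% and 7.71% of all windows, were in none of the 29. No window was given for COL1A1, COL1A2, COL2A1, COL3A1, COL5A2, COL6A1, COL8A1, COL9A3, COL14A1, COL20A1 or COL22A1. Where a gene had several windows, the first listed was used.

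Genes that make, export, cut, bind and degrade collagen were taken from 7 lists with 98 members that passed the filter. Of these, 32 rose and 2 fell, with a median log2 fold change of 0.31. Over all genes tested, 6.12% rose and 3.0% fell, with a median of 0.03. With total-read scaling the counts were 24 higher and 9 lower in the lists and 657 higher and 871 lower over all genes, and without the variance trend 12 rose and 1 fell. Among 19 genes of collagen modification and folding, 4 rose and 0 fell (median 0.31). P4HA2, a prolyl hydroxylase subunit whose product stabilises the helix, measured 17.3 and 18.9 RPKM with TGF-β1 against 4.67 and 5.39 RPKM in controls (adjusted p = 0.00317). P4HA3, PPIB and FKBP10 rose by 1.25, 0.53 and 0.36 on the log2 scale. The calls of P4HA3 and FKBP10 were lost whichever library was left out (adjusted p up to 0.159 and 0.140). Of 15 genes of collagen export, 3 rose and 0 fell (median 0.15). CREB3L1, a membrane-bound transcription factor of the secretory pathway, measured 30.8 and 36.1 RPKM with TGF-β1 against 12.6 and 13.9 RPKM in controls (adjusted p = 0.00510). The others were the chaperone HSP90B1 (log2 0.43), whose call was lost without TGF-β1 library 1 (adjusted p = 0.0751), TGF-β1 library 2 (0.0862) or control library 1 (0.0674), and the coat protein SEC13 (log2 0.42), whose call was lost whichever library was left out (up to 0.205).

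Of 11 genes of procollagen cleavage and cross-linking, 4 rose and 1 fell (median 0.39). LOX, the lysyl oxidase that cross-links fibrils, measured 8.39 and 9.13 RPKM with TGF-β1 against 0.558 and 1.02 RPKM in controls, an 11.1-fold difference (adjusted p = 0.00453). FURIN, a proprotein convertase, measured 43.5 and 46.5 RPKM with TGF-β1 against 14.2 and 14.5 RPKM in controls (adjusted p = 0.00143). BMP1, which removes the C-terminal propeptide of fibrillar procollagens, rose 1.70-fold. ADAMTS3, which removes N-terminal propeptides, fell to 1.29 and 1.41 RPKM with TGF-β1, against 3.52 and 3.90 RPKM in controls, a call lost whichever library was left out (adjusted p 0.0638 to 0.0845). Of 17 partners in fibrils and networks, 7 rose and 0 fell (median 0.30). TGFBI, a collagen-binding matrix protein, measured 535 and 582 RPKM with TGF-β1 against 111 and 115 RPKM in controls (adjusted p = 0.000507). SPARC, FN1 and SDC1 rose by 0.91, 0.74 and 0.39 on the log2 scale. The call of FN1 was lost without control library 1 (adjusted p = 0.0555), and that of SDC1 without TGF-β1 library 1 (0.0671), TGF-β1 library 2 (0.0975) or control library 1 (0.0625).

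Of 5 collagen receptors that passed the filter, 2 rose and 0 fell (median 0.57). ADGRG1, an adhesion receptor that binds type III collagen in brain, measured 198 and 193 RPKM with TGF-β1 against 25.9 and 29.03 RPKM in controls (adjusted p = 0.000484), while its ligand gene COL3A1 had at most 1 read in any library. MRC2, an endocytic collagen receptor, rose by 0.97. Of 12 genes of collagen breakdown, 4 rose and 0 fell (median 0.36). MMP1, an interstitial collagenase, measured 25.7 and 30.6 RPKM with TGF-β1 against 5.46 and 9.88 RPKM in controls (adjusted p = 0.0208, a call lost without TGF-β1 library 2). MMP13, another collagenase, measured 2.08 and 2.96 RPKM with TGF-β1 against 0.156 and 0.338 RPKM in controls (adjusted p = 0.0199, and 0.0970 without TGF-β1 library 2). MMP14, the membrane-type collagenase, and CTSB, a lysosomal protease, rose by 0.75 and 0.34, and the CTSB call was lost whichever library was left out (adjusted p 0.0662 to 0.192). Of 19 SMAD and collagen gene regulators, 8 rose and 1 fell (median 0.21). JUNB, PMEPA1 and SMAD7 rose by 3.73, 3.19 and 2.05 on the log2 scale, and SMAD3, named as the 1 that fell after its value was seen, had a log2 fold change of -0.51 (adjusted p = 0.0227). Without TGF-β1 library 2 or control library 2, 0 genes of the 7 lists were called lower, so the SMAD3 call was lost in both.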

How the data were processed

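The authors deposited 1 table of RPKM values for 25609 genes in 4 libraries of total RNA. Per the submitters' processing notes, the build was hg38 and the tools included STAR 2.7.1a, DESeq2 and bcl2fastq 2.20.0.422, with no roles. The sources used here give no annotation release, strand setting or filter. No value is 0. Multiplied by GENCODE 29 exon length, each value, divided by a factor specific to its library, gave whole reads once 0.5 was subtracted (tolerance 0.01 read, all 23853 genes of the same identifier version). For 1756 other genes, COL4A1 and COL4A2 included, the length was inferred. The inference gave the right reads for 99.8% of 500 genes of known length, tried with a reference length off by a limited factor. Genes with few reads were left out of that check, so it does not cover the low counts of near-silent chains. Of the 40 chains, 14 had another identifier version. For COL4A1 and COL4A2 a longer length also gave whole reads, and the shorter was chosen. Their RPKM values do not depend on that choice. Deposited values of silent genes therefore reflect 0.5 reads. The authors' library sizes were 0.905 and 0.873 (TGF-β1) and 1.02 and 0.987 (control) times the recovered totals, which raises TGF-β1 values.

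RPKM values were tested as deposited with limma 3.58.1 in R 4.3.3 (eBayes with variance trend) on log2(RPKM + 0.5), which understates folds of low genes. Folds are ratios of mean RPKM. The fit was tested on simulated data. Counting intervals and floors of 3 reads cover counting error only. Members and lists were chosen with earlier results of these data known. Every chain in the deposited table was described. From each list the up to 4 called genes with the smallest p were named, except that some genes are not reported here. Protein features were not analysed here.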

Additional observations from a re-analysis of the deposited data

How the results depend on the processing

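COL1A1, COL5A1, COL22A1, COL27A1 and COL8A1 kept their call in all 14 alternatives. Collagen chains higher with TGF-β1 numbered 6 without the variance trend and 9 to 11 with 1 library left out, and 1 chain was lower in each. The median of the chains was 0.089 without a filter (all 40 chains), 0.85 at a mean RPKM of at least 2 (14 chains), 0.58 scaled by total recovered reads, 0.71 with median-of-ratios scaling, 0.56 after quantile normalisation, and 0.73 to 0.78 with 1 library left out. Scaling by total reads moved the median of all genes by -0.15 and put the summed log2 difference of collagen at 0.60 instead of 0.78 (0.745 to 0.806 with 1 library left out). The difference of the COL4A1 to COL4A2 ratio ranged from 0.50 to 0.715 and that of COL6A1 to COL6A2 from 0.095 to 0.198 with 1 library left out. Of chains that did not pass, COL8A2 and COL14A1 turned to -0.074 and -0.058 with total-read scaling, and COL12A1 to 0.015 after quantile normalisation. With 1 library left out, COL8A2 ranged from -0.033 to 0.189, COL14A1 from -0.042 to 0.223 and COL12A1 from -0.190 to 0.14. The cause was not tested.

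Pathway genes that rose numbered 12 without the variance trend, 52 with voom weights and 19 to 30 with 1 library left out; those that fell numbered 1 without a filter, 9 scaled by total reads, 6 after quantile normalisation, 1 without the trend, 9 with voom weights and 0 to 2 with 1 library left out. Over all genes 1513 were called, against 424 without the trend, 977 without a filter, 3369 with voom weights, 739 and 574 without TGF-β1 library 1 or 2 and 999 without control library 1. The share of calls that were higher was 67.1%, against 43.0% scaled by total reads and 50.4% after quantile normalisation. Deviations of TGF-β1 library 1 and control library 1 from their group means had r = 0.03 across 16590 genes. With 2 libraries in a group, library 2 mirrors library 1. The value is thus a single comparison and does not settle whether same-numbered libraries were made together. With the replicate block, 12 chains were higher and 1 lower, and 34 pathway genes rose and 2 fell.

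Depth limits the 21 chains below the filter, which had at most 7 reads in any library.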
